A study of Mus musculus with 8 samples.

Results

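The genes described here are the 10 Notch pathway genes Notch1, Notch2, Notch3 and Notch4 (receptors), Jag1, Jag2 and Dll4 (ligands), Rbpj (the DNA-binding effector) and Hes1 and Hey1 (targets). They were chosen by gene name out of 53816 gene IDs, and each had 1 row in every library. RNA came from whole liver of 8 mice whose bile duct had been tied off (bile duct ligation), an operation that dams bile back into the liver and is followed by duct proliferation and scarring. The controls were 4 wild-type mice, and the other 4 are labelled as overexpressing Myc in liver sinusoidal endothelial cells (LSEC). All mice had the surgery, so no unoperated liver is part of the comparison. The sources used here give neither the promoter that drives Myc nor the time after surgery, age or sex.

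Notch receptors are single-pass membrane proteins that are activated by Jagged and Delta-like ligands on a neighbouring cell. Binding leads to cleavage by an ADAM protease and then by gamma-secretase, and the freed intracellular domain enters the nucleus, joins RBPJ and switches on Hes and Hey genes, which encode transcriptional repressors. In the liver, JAG1 and NOTCH2 are known for their part in bile duct formation, DLL4, NOTCH1 and NOTCH4 act in endothelium, and NOTCH3 is known from vascular mural cells and activated stellate cells. In whole tissue, fewer cells of a type and less RNA per cell cannot be told apart.

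The label of the manipulated gene was checked first. Myc stood at 272, 207, 554 and 89.2 TPM (a length-corrected expression level that sums to 1000000 in each library) in control replicates 1 to 4. The Myc-labelled replicates 1 to 4 held 339, 356, 25.6 and 249 TPM. These levels did not follow the label, and the sources used here do not say how a transgene would be counted. The livers are therefore called Myc-labelled, and directions given below depend on that label. Sequencing depth, worked out from FPKM and coverage, was 5.29 to 6.74 Gb of aligned bases. Hepatocyte markers summed to between 86492 and 148848 TPM per library, and all 12 endothelial markers shared by most vessels were above 0 in every library. Myc-labelled replicate 1 stood apart: of the 13055 genes averaging 1 TPM or more, 35.8% had their highest value there, and 35.5% had their lowest value in Myc-labelled replicate 3. Results that rest on replicate 1 are given with and without it.

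The promoters of Rbpj and Notch1 are shown for matches to sites of the pathway's own factors, RBPJ and the Hes proteins. Of the windows found, an Rbpj window held the most matches to the RBPJ core site. The Notch1 window held the most to the site bound by Hes proteins. The windows run from 250 bases before to 50 bases after the RefSeq transcription start (GRCm38.p6), 5′ to 3′ on the gene's strand. In the Rbpj window (chr5:53590096-53590395, plus strand, inside the Rbpj gene) capitals mark TGGGAA or its reverse complement TTCCCA, the core of the site that RBPJ binds. In the Notch1 window (chr2:26503773-26504072, minus strand, inside the Notch1 gene) capitals mark CACNAG or its reverse complement CTNGTG, the N-box bound by Hes proteins, of which 2 matches overlap.
Rbpj: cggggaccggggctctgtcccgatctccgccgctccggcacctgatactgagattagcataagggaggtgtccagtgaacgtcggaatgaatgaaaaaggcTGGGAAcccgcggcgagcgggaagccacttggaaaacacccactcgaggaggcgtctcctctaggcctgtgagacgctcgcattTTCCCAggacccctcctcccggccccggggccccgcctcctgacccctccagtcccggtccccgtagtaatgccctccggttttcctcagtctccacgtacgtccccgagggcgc
Notch1: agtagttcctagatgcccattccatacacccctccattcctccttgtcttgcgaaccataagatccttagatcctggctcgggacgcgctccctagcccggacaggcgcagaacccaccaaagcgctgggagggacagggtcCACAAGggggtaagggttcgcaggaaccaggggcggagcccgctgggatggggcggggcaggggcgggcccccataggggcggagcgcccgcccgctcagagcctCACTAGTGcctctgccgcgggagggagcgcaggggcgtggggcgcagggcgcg
Of the 10 genes 8 matched the RefSeq promoter table, with 9 windows. TGGGAA, searched on both strands, lay in 2 of these 9 windows, both of them Rbpj starts that overlap, against 25.6% of all 32851 windows of the same length. The longer GTGGGAA (both strands, overlapping TGGGAA) lay in 0 of the 9, against 6.38% of all windows, and CACGTG, the E-box bound by MYC and MAX, in 0 of the 9, against 7.15%. CACNAG lay in 4 of the 9 (Notch1, Notch2, Notch3 and Dll4), against 42.5%. These matches describe letters in a window, not sites in use.

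**Figure D1:**
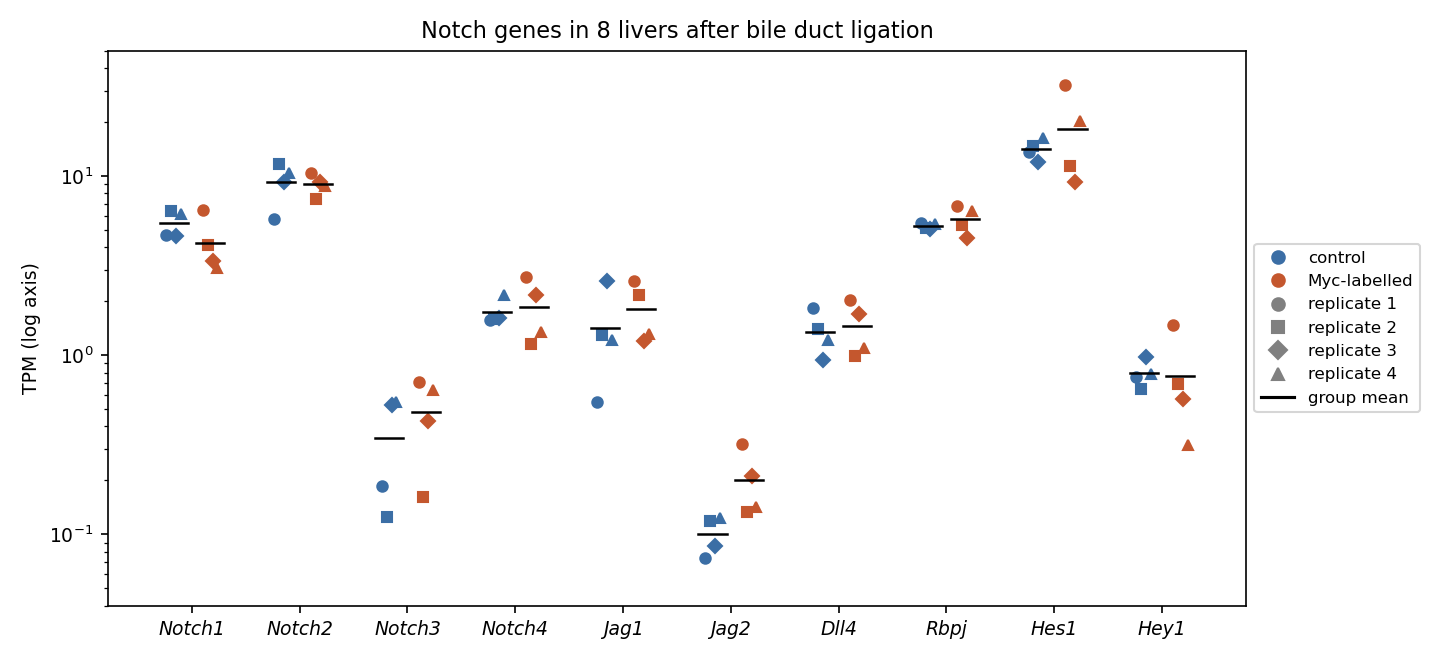
TPM of the 10 Notch genes in each of the 8 livers on a log axis, blue for the controls and orange for the Myc-labelled livers, with a symbol per replicate and a bar at each group mean. Jag2, between 0.074 and 0.32 TPM, is the gene whose groups do not overlap. Groups do not overlap in 1.26% of the genes tested, which leave out Jag2. The orange circle (Myc-labelled replicate 1) is highest in 8 of the 10 genes, and that liver is highest in 35.8% of all genes tested.

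Across the 8 livers Hes1 was the most abundant of the 10 genes, with a mean of 16.2 TPM, followed by Notch2 (9.14 TPM), Rbpj (5.51 TPM) and Notch1 (4.85 TPM). Notch4 (1.79 TPM), Jag1 (1.62 TPM) and Dll4 (1.40 TPM) formed a middle group, and Hey1 (0.778 TPM), Notch3 (0.415 TPM) and Jag2 (0.151 TPM) were lowest. The ranges of neighbours in this order overlapped between libraries, except for Notch1 and Notch4. The lowest Notch1 value (3.05 TPM) lay above the highest Notch4 value (2.74 TPM). Within a library, Hes1 exceeded Notch2 in 7 of 8, Notch2 exceeded Rbpj in 8 of 8, Rbpj exceeded Notch1 in 6 of 8, Notch4 exceeded Jag1 in 6 of 8 and Jag1 exceeded Dll4 in 5 of 8 livers. The order depended on the measure, most of all for Rbpj, a gene with 12 annotated transcripts. Its TPM was 10.4 to 10.5 times the depth-scaled mean coverage of the gene in every library, whereas the ratio was 1.03 for Dll4 and for Notch2. By depth-scaled coverage, Rbpj ranked 8 among the 10 genes rather than 3, while Hes1 and Notch2 kept ranks 1 and 2. Notch4, at 1.03 on that scale, came below Jag1 (1.47) and Dll4 (1.36), the reverse of their order in TPM. Between libraries this ratio of Rbpj was nearly constant, so comparisons of Rbpj between livers are not touched by it. The pseudogene Rbpj-ps3, listed at 0.213 to 1.06 TPM, can share reads with Rbpj.

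None of the 10 genes passed an adjusted p of 0.05 between the groups. Over all genes tested, limma on log2(TPM + 1) called 0 of 13055 (0%), and 1.86% had an unadjusted p under 0.05. Of the 10 genes 7 reached a mean of 1 TPM and entered that test (Notch1, Notch2, Notch4, Jag1, Dll4, Rbpj and Hes1). Of these 7, 5 had a positive and 2 a negative log2 difference (Myc-labelled minus control), 0 had an unadjusted p under 0.05 (1.26% of all genes did in the higher and 0.597% in the lower direction), and 0 had groups that did not overlap, against 1.26% of all genes. Positive differences made up 58% of all genes. That direction moved with the scaling and with 1 library: at an unadjusted p under 0.05, limma gave 165 genes higher and 78 lower as deposited, 166 and 172 with median-of-ratios scaling, 166 and 152 with quantile normalization, and 89 and 187 without Myc-labelled replicate 1. Notch3, Jag2 and Hey1 lay below the filter and are given with an exact permutation test over the 70 assignments of livers to groups, whose smallest two-sided p is 0.0286. The sources used here do not say whether the livers came from separate litters or cages, so p-values measure the spread between these samples.

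**Figure D2:**
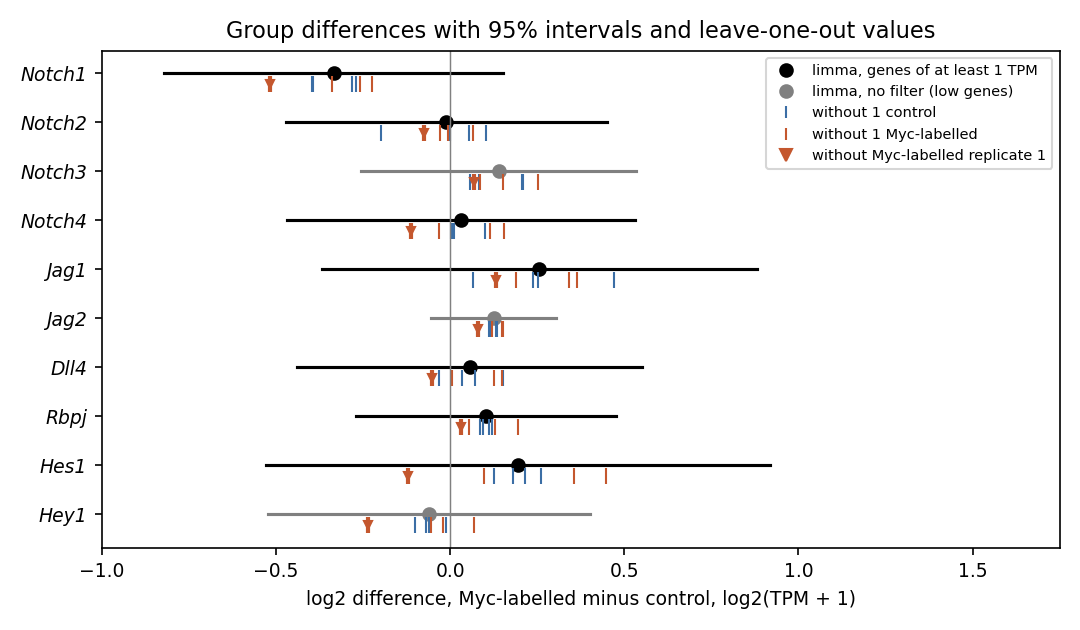
Log2 differences on the log2(TPM + 1) scale (points) with 95% intervals (lines), black for the 7 genes tested and grey for the 3 low genes fitted without the filter. Ticks are the values with 1 library left out, and the triangle is the value without Myc-labelled replicate 1. Every interval spans 0, and the triangle is the lowest of the values without 1 Myc-labelled liver for all 10 genes.

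Among the receptors, Notch1 had the lowest p-value. Its control replicates 1 to 4 held 4.68, 6.34, 4.64 and 6.17 TPM and its Myc-labelled replicates 1 to 4 held 6.43, 4.11, 3.34 and 3.05 TPM, the order used for every gene below. Myc-labelled replicates 2, 3 and 4 lay below every control, and replicate 1 lay above every control. The group means were 5.46 ± 0.924 and 4.23 ± 1.54 TPM (SD, n = 4 each), and the log2 difference was -0.33 ± 0.22 (SE, 95% interval -0.82 to 0.15, limma adjusted p = 1.0, unadjusted p = 0.158). With Myc-labelled replicate 1 left out it was -0.52, with a limma unadjusted p of 0.0203 and an adjusted p of 1.0. After quantile normalization of all 8 livers it was -0.38, with a limma unadjusted p of 0.0459 and an adjusted p of 1.0. The median log2 difference of all genes went from 0.037 to -0.037 without that liver and to 0.0044 with quantile normalization. With median-of-ratios scaling that median was 3.8e-05 and the Notch1 difference was -0.37 (limma unadjusted p = 0.0637, with 0 genes called). Scaled Notch1 in Myc-labelled replicate 1, at 5.30, lay within the control range of 4.68 to 6.37. The part of the shift of all genes in the Notch1 difference was not tested.

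Notch2, the receptor known from biliary cells and also expressed by macrophages and hepatocytes, did not separate the groups. It stood at 5.79, 11.7, 9.21 and 10.4 TPM in the controls and at 10.4, 7.48, 9.29 and 8.83 TPM in the Myc-labelled livers. Control replicate 1 was the lowest and control replicate 2 the highest of the 8, so the controls enclosed every Myc-labelled value. The log2 difference was -0.011 ± 0.21 (SE, 95% interval -0.47 to 0.45, limma adjusted p = 1.0).

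Notch4, a receptor of endothelial cells, stood at 1.57, 1.59, 1.61 and 2.15 TPM in the controls and at 2.74, 1.15, 2.17 and 1.34 TPM in the Myc-labelled livers. Of the Myc-labelled livers 2 lay above and 2 below all controls (log2 difference 0.031 ± 0.23 SE, limma adjusted p = 1.0). For this gene with 12 annotated transcripts, TPM was 2.53 times the depth-scaled coverage in Myc-labelled replicate 3 and 1.52 to 1.85 times in the other 7 livers. By depth-scaled coverage Myc-labelled replicates 2, 3 and 4 stood at 0.624, 0.858 and 0.830, all below the control range of 0.907 to 1.21, and replicate 1 stayed highest at 1.78.

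Notch3, a receptor of mural cells and activated stellate cells, was near the lower limit of these libraries. It stood at 0.186, 0.125, 0.528 and 0.545 TPM in the controls and at 0.704, 0.161, 0.429 and 0.640 TPM in the Myc-labelled livers. Each group held low and high livers, a 5.62-fold spread in all, and the groups overlapped (exact permutation p = 0.429, two-sided). Its log2 difference of 0.14 was 0.067 without Myc-labelled replicate 1, and with any 1 library left out lay between 0.058 (without control replicate 2) and 0.25 (without Myc-labelled replicate 2). Its mean coverage was 0.38 to 1.99 reads per base.

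As a share of the 4 receptors' summed TPM, Notch2 made up 47.3% to 63.7%, Notch1 21.9% to 38.3%, Notch4 8.04% to 14.2% and Notch3 0.634% to 4.62% over the 8 livers. These shares do not depend on a scaling of the whole library. The Notch1 share was 38.3%, 32.1%, 29.0% and 32.0% in the controls and 31.8%, 31.9%, 21.9% and 22% in the Myc-labelled livers. Myc-labelled replicates 3 and 4 thus lay below all others, while replicates 1 and 2 lay within the control range (exact permutation p = 0.143, two-sided, 0.571 after Benjamini-Hochberg adjustment over 8 shares). The summed receptor level ranged from 12.2 TPM in control replicate 1 to 20.3 TPM in Myc-labelled replicate 1.

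Among the ligands, Jag1, which signals to NOTCH2 in the biliary tree, stood at 0.551, 1.29, 2.60 and 1.22 TPM in the controls and at 2.58, 2.17, 1.2 and 1.31 TPM in the Myc-labelled livers. Control replicate 3 and Myc-labelled replicates 1 and 2 were high and control replicate 1 was low, a 4.73-fold spread that crossed the groups. The log2 difference was 0.26 ± 0.28 (SE, 95% interval -0.37 to 0.88, limma adjusted p = 1.0). Leaving out control replicate 1 gave 0.065, leaving out control replicate 3 gave 0.47 and leaving out Myc-labelled replicate 1 gave 0.13.

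Dll4, the endothelial Delta-like ligand, stood at 1.84, 1.39, 0.936 and 1.22 TPM in the controls and at 2.03, 0.991, 1.69 and 1.10 TPM in the Myc-labelled livers. Its livers interleaved between the groups (log2 difference 0.057 ± 0.23 SE, 95% interval -0.44 to 0.55, limma adjusted p = 1.0).

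Jag2, a second Jagged ligand, was the gene among the 10 whose groups did not overlap. It stood at 0.0740, 0.118, 0.0862 and 0.124 TPM in the controls and at 0.320, 0.133, 0.212 and 0.143 TPM in the Myc-labelled livers (means 0.101 ± 0.0242 and 0.202 ± 0.0862, SD, n = 4 each). The exact permutation p was 0.0286, two-sided, the smallest that 4 against 4 can give, and it is not adjusted for the 10 genes looked at. Groups did not overlap for 1.26% of the 13055 genes tested (0.935% with the Myc-labelled livers higher). Jag2 lay below that filter, and the share among genes as low as Jag2 was not worked out. In limma without the filter the adjusted p was 0.996. Myc-labelled replicate 2, at 0.133 TPM, and control replicate 4, at 0.124 TPM, were next to each other. The separation was not present in the coverage of the same rows. Depth-scaled coverage of Jag2 was 0.0540, 0.0865, 0.0632 and 0.0896 in the controls and 0.138, 0.0935, 0.0676 and 0.0750 in the Myc-labelled livers, which overlapped (exact permutation p = 0.343, two-sided). The TPM of Jag2, a gene with 10 annotated transcripts, was 1.36 to 1.38 times this coverage in the controls and 2.32, 1.42, 3.13 and 1.90 times in Myc-labelled replicates 1 to 4. The Myc-labelled mean TPM was 2.01 times the control mean, and mean coverage was 0.168 to 0.372 reads per base in any library. Leaving out 1 control moved the exact permutation p to between 0.0857 and 0.143, two-sided, and leaving out 1 Myc-labelled liver left it at 0.0286. The TPM of the livers that remained did not overlap between the groups in any of these cases.

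Dll1, a further Delta-like ligand outside the 10 genes, was the most abundant ligand in whole liver by TPM, and its rank by depth-scaled coverage was not worked out. It stood at 2.05, 3.5, 3.38 and 3.68 TPM in the controls and at 2.99, 3.05, 4.82 and 2.93 TPM in the Myc-labelled livers, above Jag1 and above Dll4 in 8 of 8 livers. Of the summed TPM of Dll1, Jag1, Jag2 and Dll4, Dll1 made up 37.8% to 60.8%, Jag1 12.2% to 37.1%, Dll4 13.4% to 40.7% and Jag2 1.23% to 4.04%. The Jag2 share had an exact permutation p of 0.0286, two-sided (0.229 after Benjamini-Hochberg adjustment over the 8 shares), with the same limit on its TPM as above. No other ligand share had an unadjusted exact permutation p under 0.571.

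**Figure D3:**
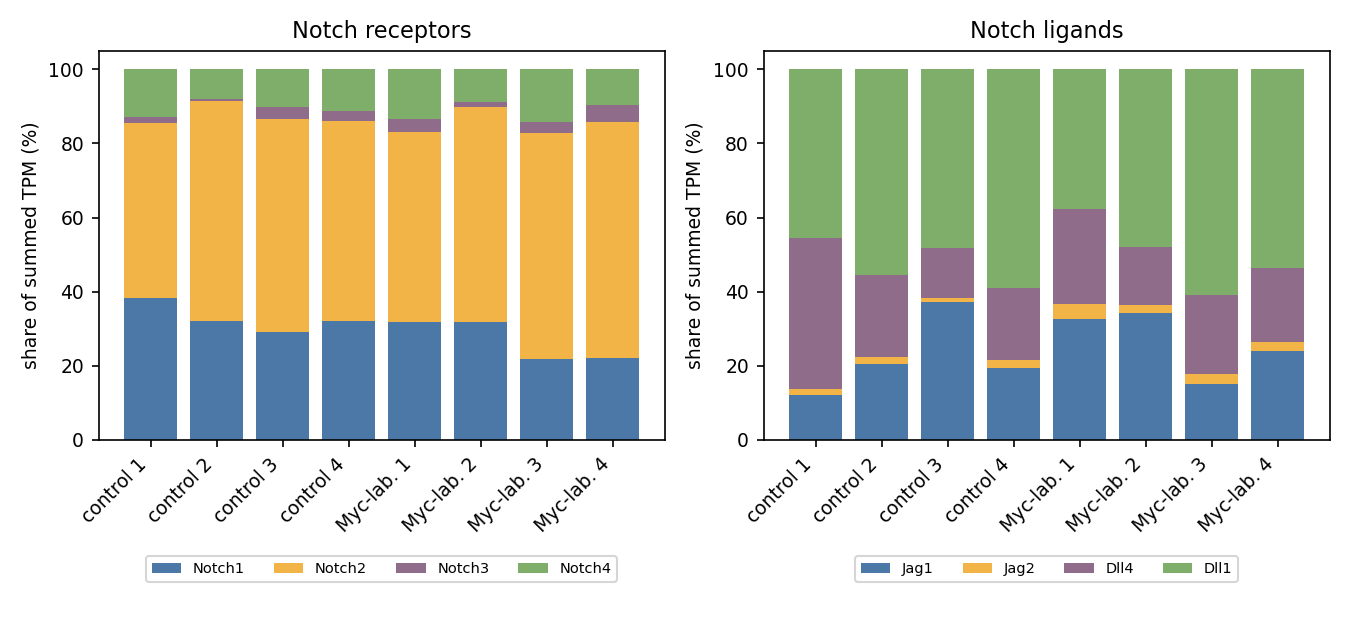
Share in percent of the summed TPM of the 4 Notch receptors (left) and of 4 ligands (right) in each of the 8 livers, stacked to 100%. Notch2 is the largest receptor share and Dll1 the largest ligand share in every library, and Jag1 ranges from 12.2% to 37.1%.

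Rbpj, the transcription factor through which all 4 receptors act, was the steadiest of the 10 genes, with a 1.5-fold range over the 8 livers. It stood at 5.48, 5.12, 5.03 and 5.36 TPM in the controls and at 6.79, 5.35, 4.53 and 6.41 TPM in the Myc-labelled livers. The Myc-labelled livers lay on both sides of the controls, with an SD of 1.03 against 0.208 TPM. The log2 difference was 0.10 ± 0.17 (SE, 95% interval -0.27 to 0.48, limma adjusted p = 1.0). It was 0.031 without Myc-labelled replicate 1, 0.055 without replicate 4 and 0.20 without replicate 3.

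Hes1, a repressor of differentiation genes and the best known Notch target, stood at 13.7, 14.7, 12.0 and 16.3 TPM in the controls and at 32.4, 11.4, 9.22 and 20.2 TPM in the Myc-labelled livers. Myc-labelled replicates 1 and 4 lay above every control, and replicates 2 and 3 lay below every control. The group means were 14.2 ± 1.79 and 18.3 ± 10.5 TPM (SD, n = 4 each), with a log2 difference of 0.20 ± 0.33 (SE, 95% interval -0.53 to 0.92, limma adjusted p = 1.0). Without Myc-labelled replicate 1 that difference was -0.12, of opposite sign, with a limma adjusted p of 1.0. The differences of Notch4 and Dll4 likewise became negative without that liver, at -0.11 and -0.052.

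Hey1, a Notch target of endothelial cells, did not follow Hes1 in Myc-labelled replicate 4. It stood at 0.754, 0.647, 0.982 and 0.786 TPM in the controls and at 1.47, 0.693, 0.573 and 0.314 TPM in the Myc-labelled livers. Replicate 1 was the highest and replicate 4 the lowest of the 8 livers, whereas Hes1 in replicate 4 was the second highest (exact permutation p = 0.743 for Hey1, two-sided). Its log2 difference of -0.061 was -0.24 without replicate 1 (exact permutation p = 0.0857, two-sided) and 0.067, of opposite sign, without replicate 4. Its mean coverage was 0.622 to 2.83 reads per base.

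Myc-labelled replicate 1 held the highest value of 8 of the 10 Notch genes, all but Notch2 and Jag1, and of 35.8% of all genes tested. After median-of-ratios scaling, which divided this library by 1.22 and Myc-labelled replicate 3 by 0.850, it held the highest value of 3 of the 10 (Jag2, Hes1 and Hey1) and of 9.64% of all genes tested. Scaled Hes1 in that library was 26.6, with controls from 12.1 to 16.0, and scaled Hey1 was 1.21, with controls from 0.650 to 0.990, so both targets stayed above all controls there. The same held for scaled Jag2 (0.263, controls up to 0.122), Notch4 (2.26, controls up to 2.11) and Notch3 (0.579, controls up to 0.535). Scaled Dll4 in that library, at 1.67, fell within the control range of 0.943 to 1.92, and scaled Rbpj, at 5.59, within 5.07 to 5.73. Scaled Notch1, Notch2 and Jag1 there also lay within their control ranges.

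Of the 8 marker lists with tested genes, the pan-endothelial, arterial endothelial and stellate and mural lists had their highest unscaled mean in Myc-labelled replicate 1. The other 5 had it in another liver. The median deviation of all tested genes was 0.24 in Myc-labelled replicate 1 and 0.016 in control replicate 4. The pan-endothelial list stood at 0.30 and 0.24 in these livers, and the arterial list at 0.36 and 0.26. List means were not repeated with median-of-ratios scaling. The hepatocyte list was below its mean in Myc-labelled replicate 1 (-0.19). The centred log2 mean of 10 stellate and mural markers reached 1.14 in Myc-labelled replicate 1 and lay between -0.72 and 0.18 in the remaining 3 Myc-labelled livers and between -1.01 and 0.44 in the controls. Summed, these 13 listed markers stood at 44.5 to 161 TPM in the controls and at 55.6 to 276 TPM in the Myc-labelled livers, with Cspg4 at 0 in some libraries. Of 12 sinusoidal endothelial markers, 1 had a positive and 11 a negative log2 difference, with a median of -0.26 against 0.04 over all genes, and 0 passed the adjusted test. Their control sums were 188 to 261 TPM and their Myc-labelled sums 130.1 to 249 TPM. Pan-endothelial markers were positive in 4 of 12 (median -0.11, control sums 114 to 169, Myc-labelled sums 99.1 to 165 TPM) and arterial endothelial markers in 2 of 7 (median -0.04). Cholangiocyte markers were positive in 9 of 10 (median 0.28) and summed to 138 to 381 TPM in the controls against 167 to 1041 TPM, of which Spp1 alone made up 80.5 to 296 and 104 to 939 TPM. Kupffer cell markers were positive in 0 of 10 (median -0.43), hepatocyte markers in 3 of 12 (median -0.11), stellate and mural markers in 8 of 10 (median 0.34) and neutrophil markers in 8 of 8 (median 0.67), with 0 genes of any list past the adjusted test. None of the 10 lymphocyte markers reached a mean of 1 TPM, and the neutrophil markers summed to 15.3 to 72.9 TPM (controls) and 28 to 163 TPM (Myc-labelled). The part of these cell types in the Notch gene values was not tested.

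**Figure D4:**
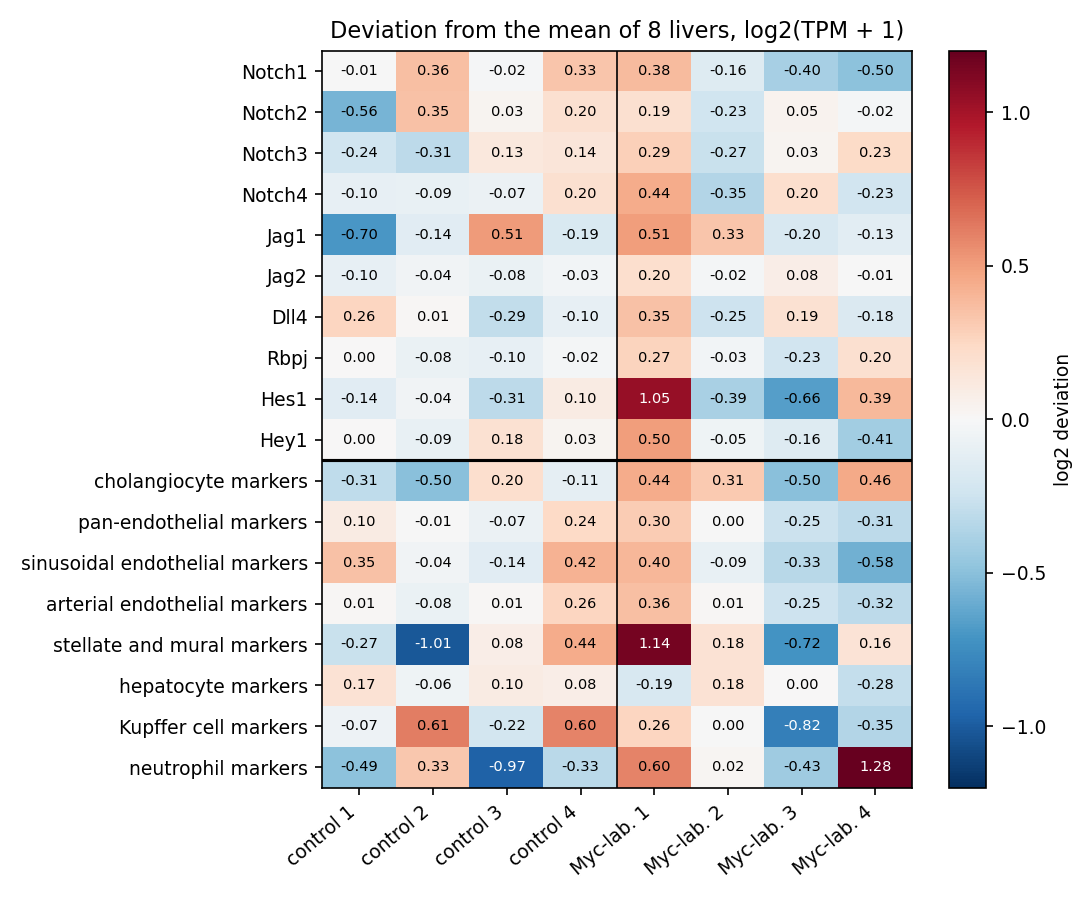
Deviation of each Notch gene (upper 10 rows) and of the mean of each marker list (lower 8 rows) from its mean over 8 livers, in log2(TPM + 1) units, with red for high and blue for low. Values are without median-of-ratios scaling. In Myc-labelled replicate 1 all 10 Notch genes are above their mean and Hes1 (1.05) and the stellate and mural markers (1.14) deviate most.

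Over the 8 livers 42 of the 45 pairs of Notch genes had a positive Pearson r on log2(TPM + 1), with a median r of 0.40. The points share the library, its scaling and its cell makeup. Without Myc-labelled replicate 1, 22 of the 45 were positive and the median r was -0.06. The excess of positive over negative pairs was thus not present without that liver. With all 8 livers and median-of-ratios scaling, 30 of the 45 pairs were positive.

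Rbpj and Hes1 gave the one pair that passed over the 45 pairs. Pearson r was 0.93 (exact permutation p = 0.00107, adjusted p = 0.048 over 45 pairs, two-sided) and Spearman rho 0.83 (exact permutation p = 0.0154, adjusted p = 0.692). Without the 2 livers farthest from the median of Rbpj, r was 0.74, and of deviations from group means r was 0.93. Within the controls r was 0.49, and within the Myc-labelled livers it was 0.95. Leaving out any 1 of the 8 livers ended the call while r stayed between 0.87 and 0.95: the exact permutation p adjusted over 45 pairs was 0.362 without Myc-labelled replicate 1, 0.354 without replicate 3 and 0.0625 to 0.339 without 1 of the other 6. With median-of-ratios scaling r fell to 0.54 (exact permutation p = 0.17, adjusted p = 0.89), and the pair was no longer called. The genes most like Rbpj in its values over the 8 livers were Ptma (r = 0.99), Fam98b (r = 0.98) and Atp6v1h (r = 0.98), and those most like Hes1 were Tmod3 (r = 0.98), Lims1 (r = 0.97) and Tcea1 (r = 0.97), out of 8223 genes of at least 5 TPM.

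**Figure D5:**
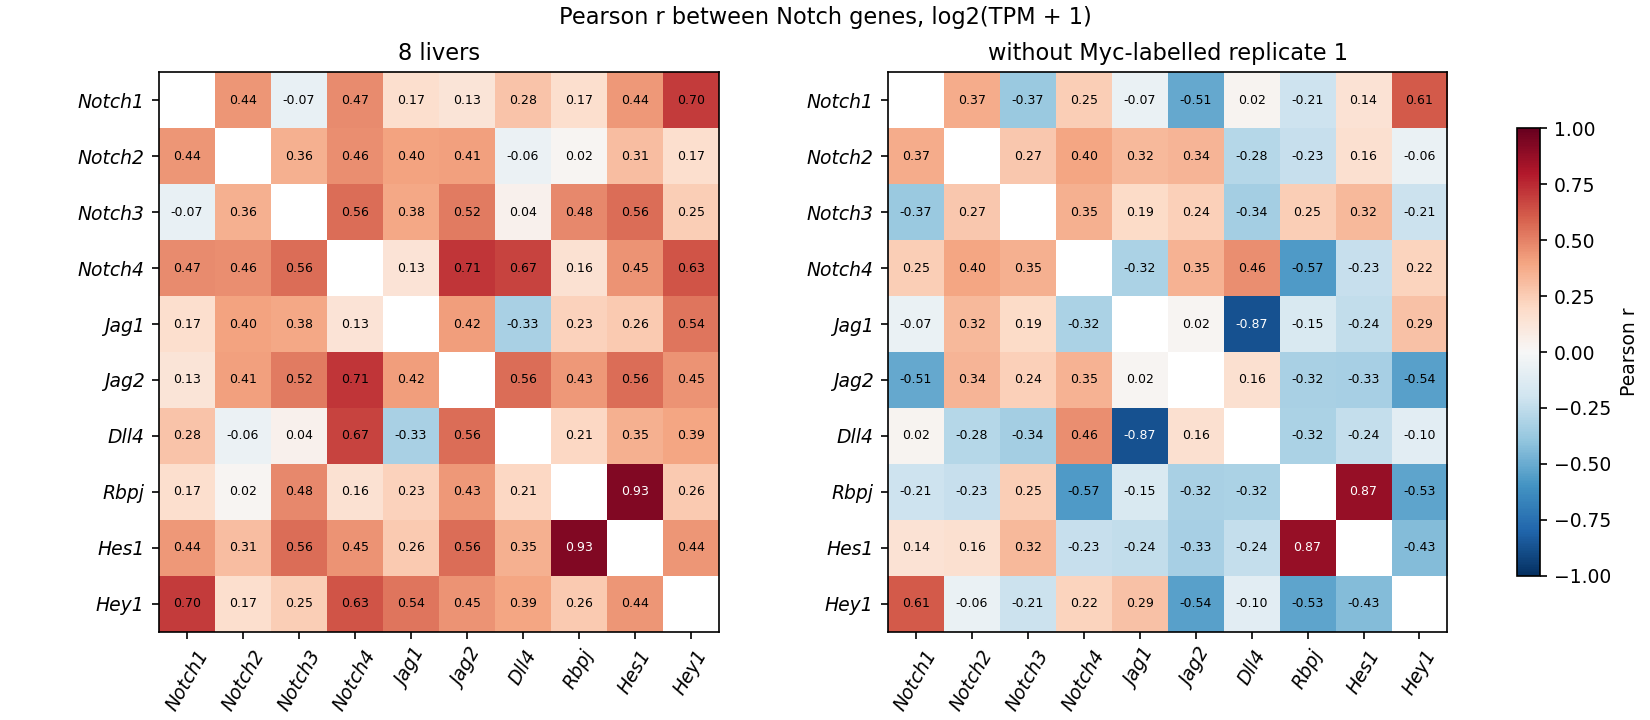
Pearson r on log2(TPM + 1) for the 45 pairs of Notch genes over 8 livers (left) and over the 7 livers without Myc-labelled replicate 1 (right), from blue (-1) to red (1). Rbpj with Hes1 is high in both (0.93 and 0.87), while 42 positive pairs on the left become 22 on the right.

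Jag1 and Dll4 ran against each other outside Myc-labelled replicate 1. Their r was -0.33 over 8 livers (exact permutation p = 0.414, adjusted p = 0.665, two-sided; rho -0.48, exact permutation p = 0.243) and -0.87 without that liver, chosen after its value was seen. It was -0.96 within the controls, where replicate 1 had the lowest Jag1 and the highest Dll4 and replicate 3 the reverse, and 0.23 within the Myc-labelled livers, 4 each. Notch1 and Hey1 had an r of 0.70 (exact permutation p = 0.0480, adjusted p = 0.622; rho 0.69, exact permutation p = 0.0694), and 0.27 without the 2 livers farthest from the median of Notch1. Within the controls that r was -0.67, and within the Myc-labelled livers it was 0.98.

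The Notch genes were also set beside the marker lists. Of 80 relations between the 10 genes and 8 marker lists, looked at after the values were known, 10 had an exact permutation p under 0.05 and 0 passed after adjustment (smallest adjusted p = 0.193). Both sides were unscaled and share the shift of each library. The median deviation of all tested genes was 0.24 in Myc-labelled replicate 1 and -0.21 in replicate 3. None of the relations was repeated with median-of-ratios scaling. The highest were Notch1 with Kupffer cell markers (r = 0.88, rho 0.83, exact permutation p = 0.00469 and 0.0154), Notch1 with pan-endothelial markers (r = 0.87, rho 0.81, exact permutation p = 0.00724 and 0.0218) and Hey1 with arterial endothelial markers (r = 0.86, rho 0.86, exact permutation p = 0.00518 and 0.0107). Without Myc-labelled replicate 1 these r values were 0.90, 0.84 and 0.76. Notch1 with pan-endothelial markers had an r of 0.39 within the controls and 0.99 within the Myc-labelled livers. Hey1 with arterial markers had an r of 0.57 without the 2 livers farthest from the median of the markers. Within the controls that r was 0.21, and within the Myc-labelled livers it was 0.97. The arterial and cholangiocyte lists overlap with the list of further Notch target genes given below. Rbpj had r values of nearly the same size with stellate and mural (0.74), cholangiocyte (0.73) and neutrophil markers (0.73). With cholangiocyte markers its r was -0.35 within the controls and 0.90 within the Myc-labelled livers. Jag1 had an r of 0.65 with cholangiocyte markers. The genes most like Notch1 were Pbxip1, Mtf1 and Smoc1 (r = 0.96, 0.96 and 0.96), those most like Jag1 were Camk2g, Secisbp2 and Dcaf7 (r = 0.95, 0.95 and 0.95), and those most like Hey1 were Xpo7, Pcgf3 and Gmfb (r = 0.97, 0.96 and 0.94). Notch4 was most like Efnb1, Pkd2 and Ppt2 (r = 0.93, 0.92 and 0.92) and Dll4 most like Zfp280d, Rnpc3 and Glo1 (r = 0.93, 0.92 and 0.92). Notch2 was most like Slc38a7, Carm1 and Virma (r = 0.98, 0.98 and 0.97), Notch3 like Fbxo25, Ampd2 and Cwf19l1 (r = 0.96, 0.94 and 0.94) and Jag2 like Ric1, Trub2 and Mex3c (r = 0.94, 0.94 and 0.94). With 8 livers and 8223 genes searched, such r values describe the highest of many.

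The remaining pathway genes were taken from 7 lists of 72 genes, of which 59 were tested. Of these, 39 had a positive and 20 a negative difference (66.1% positive, against 58% of all genes), 1 had an unadjusted p under 0.05 (1.69%, against 1.86% of all genes), and 0 passed or had groups that did not overlap. Of the 5 other ligand genes only Dll1 was tested (log2 difference 0.10 ± 0.22 SE, limma adjusted p = 1.0), and Dll3 was listed at 0 in all 8 livers. Receptor glycosylation genes, which tune ligand choice, were positive in 6 of 8, with a median log2 difference of 0.03 against 0.04 over all genes. The fringe gene Lfng averaged 5.09 ± 1.54 TPM in controls against 5.76 ± 2.73 TPM (SD, n = 4 each, as for all pathway genes below), with its highest value, 9.72 TPM, in Myc-labelled replicate 1. Xylosyltransferase Gxylt1 stood at 3.53 ± 1.54 against 4.47 ± 1.01 TPM.

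Of the protease genes that cut the receptor, 5 of 9 were positive (median 0.01). Psen2, a catalytic subunit of gamma-secretase, averaged 229 ± 59.9 against 179.9 ± 51.3 TPM, and Adam17 averaged 7.18 ± 1.78 against 8.35 ± 2.26 TPM. Genes of ligand endocytosis and receptor turnover were positive in 10 of 14 (median 0.08). The ubiquitin ligase gene Dtx4 held the lowest p of all 59, at 2.20, 2.03, 3.82 and 2.88 TPM in the controls and at 6.01, 2.91, 4.37 and 5.21 TPM in the Myc-labelled livers. Myc-labelled replicate 2 lay within the control range, and the other 3 lay above it (log2 difference 0.58 ± 0.23 SE, limma unadjusted p = 0.0296, adjusted p = 1.0). Neurl1a stood at 1.01 ± 0.697 against 2.01 ± 1.58 TPM.

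Nuclear coactivators were positive in 3 of 6 (median 0.02), with Maml1, a scaffold of the RBPJ complex, at 7.11 ± 1.11 against 6.76 ± 1.06 TPM. Corepressors were positive in 9 of 14 (median 0.03), with Tle1 at 23.8 ± 3.57 against 28.6 ± 3.06 TPM. Of 12 further target genes 7 were tested and 5 were positive (median 0.10). Sox9, a biliary transcription factor, stood at 2.82, 6.88, 3.83 and 3.44 TPM in the controls and at 9.84, 2.71, 4.93 and 11.1 TPM in the Myc-labelled livers, high in the same Myc-labelled replicates, 1 and 4, as Hes1 (log2 difference 0.54 ± 0.38 SE, limma adjusted p = 1.0). Cdkn1a stood at 87.7 ± 26.9 against 106 ± 39.7 TPM. The other 5 lay below the filter. Nrarp and Heyl had their highest values, 2.09 and 1.48 TPM, in Myc-labelled replicate 1, as did 35.8% of all genes tested, whereas Hey2 was listed at 0 and Hes7 at 0.027 TPM in that liver, and Hes5 at 0 in all 8 livers.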

How the data were processed

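The submitters' processing notes name HISAT2, StringTie and the mm10 build; the sources used here give no versions, annotation or strand setting. Each file lists 53816 gene IDs. TPM (the unit tested), FPKM and coverage (a signal in reads per base, not scaled for depth) were deposited by the authors, per the file headers. Repeated gene IDs (10 to 15 rows a library, 0 of Notch genes) were added up. GENCODE M21 held 98.3% of the versioned IDs and gave gene types and transcript numbers. Depth-scaled coverage is coverage times the ratio of TPM to coverage of genes with 1 transcript.

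On log2(TPM + 1), limma 3.58.1 under R 4.3.3 (trend and robust options) compared the groups for the 13055 genes averaging 1 TPM or more, two-sided, with Benjamini-Hochberg adjustment. This pseudocount understates changes of low genes. Correlations used exact permutation of all pairings. The fit was checked on simulated data, drawn independently for each gene and liver, with changes given only to more abundant genes. That check does not cover changes in low genes or shifts of a whole library. Other computations used Python 3.11.15, pandas 2.3.3, numpy 2.4.6 and scipy 1.17.1.

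The members and lists were chosen with earlier results of these data known. Named genes are the 10 Notch genes, up to 3 tested genes of each list with the smallest p, the 3 genes most alike in Pearson r (protein-coding, mean of at least 5 TPM, no Gm or Rik symbols) and markers a result turns on. Lfng, Nrarp, Heyl, Hes5, Hes7, Hey2, Dll3 and the Rbpj pseudogene were named after their values were seen, and 1 gene of the lists is not reported here by name. Alternatives were the pseudocount, filter, scaling, FPKM, array weights, the limma options, each library left out and a replicate block; depth-scaled coverage, the receptor and ligand shares and the marker relations were added after seeing the data.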

Additional observations from a re-analysis of the deposited data

Results flagged for a closer look

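Of 104 groups of 4 livers, taken from 52 named genes, 5 held 1 liver whose distance from the rest passed Dixon's 95% limit, and chance flags about 1 group in 20. Notch4 stood at 2.15 TPM in control replicate 4 and at 1.57 to 1.61 TPM in the other controls. Dll1 stood at 4.82 TPM in Myc-labelled replicate 3 and at 2.93 to 3.05 TPM in the other Myc-labelled livers. Cdh1, the E-cadherin gene, stood at 52.4 TPM in Myc-labelled replicate 4 against 28.1 to 30.7 TPM. Robo4, an endothelial receptor gene, stood at 5.45 TPM in Myc-labelled replicate 1 against 3.5 to 3.77 TPM. Alb, the albumin gene, stood at 73217 TPM in Myc-labelled replicate 2 against 42693 to 46818 TPM.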

How the results depend on the processing

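Of 174 values under other settings, 152 kept their direction and side of the threshold, 16 reversed in sign and 6, all of Jag2, no longer had a p under 0.05. For Jag2 without the filter this was the limma adjusted p (0.996), and its exact permutation p stayed at 0.0286. limma called 0 genes under the other settings except array weights, which called 1, lower in the Myc-labelled livers. With median-of-ratios scaling, FPKM in place of TPM or Spearman rho, 0 pairs of Notch genes were correlated past adjustment in place of 1, and with each library left out in turn the count was 0 to 0. Log2 differences that changed sign, on the scale of each setting, were those of Notch2 with FPKM (0.013), of Notch4 and Dll4 with quantile normalization (-0.031 and -0.012), of Notch4, Dll4 and Hes1 with array weights (-0.20, -0.034 and -0.010) and of Notch4 with depth-scaled coverage (-0.039). With 1 library left out, the ranges were -0.20 to 0.10 for Notch2, -0.11 to 0.15 for Notch4, -0.052 to 0.15 for Dll4, -0.12 to 0.45 for Hes1 and -0.24 to 0.067 for Hey1. The cause was not tested. The median log2 difference of all genes moved from 0.037 to 0.11 without Myc-labelled replicate 3 and to -0.037 without replicate 1. With the replicate block limma called 0 genes, with 141 higher and 90 lower at an unadjusted p under 0.05, against 165 and 78 without it. Livers sharing a replicate number had an r of deviations of 0.128, -0.058, 0.065 and 0.070, and livers of different numbers had -0.206 to 0.222. The sources used here do not say what the number means, and these values cannot tell whether such livers shared a batch. Read counts per gene were not part of the files used here, so the values of Notch3, Jag2 and Hey1 carry no counting interval.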
